A study of Homo sapiens with 2 samples.

Results

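The aminoacyl-tRNA synthetases are the enzymes that load each transfer RNA (tRNA) with its amino acid. Members were found by symbol (a letter for the amino acid, then ARS1 or ARS2, plus EPRS1), and 33 of the 18417 genes named on the arrays fitted, 17 cytosolic and 16 mitochondrial by their symbol. The study exposed HepG2, a human hepatoma line, to amorphous silica nanoparticles (SiO2-NP) at 100 mg/L for 24 h and compared it with control HepG2 cells. Each group is 1 Affymetrix array of total RNA from cells kept in MEM medium, and neither particle size nor a number of pooled cultures is given in the sources used here. A single array stands for each group, so no spread between replicates could be measured and no test was run. Every difference below is log2 intensity in the SiO2-NP array minus that in the control array, and "lower" and "higher" describe these 2 arrays.

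Synthetases fall into class I and class II by the fold of their catalytic domain, and both classes activate the amino acid with ATP before joining it to the tRNA. Cytosolic translation and mitochondrial translation use separate sets, all encoded in the nucleus. Symbols ending in 1 mark the cytosolic set and those ending in 2 the mitochondrial set. GARS1 and KARS1 each encode a cytosolic and a mitochondrial form. EPRS1 joins a glutamate enzyme and a proline enzyme in a single chain. In hepatocytes, which secrete much of the plasma protein, the cytosolic set supplies a heavy translation load. ATF4, the transcription factor of the amino acid and stress response, is known to induce many of the cytosolic enzymes.

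Across all probes the arrays correlated with a Pearson r of 0.994, and the median difference was 0.01 over all named genes (SD across genes 0.19) and -0.03 over the 9209 genes at or above the median gene level (SD 0.16), a log2 intensity of 7.26. Of the hepatocyte markers 8 of 9 were measured, and all 8 lay above that level, as did 1 of 5 measured fibroblast markers, 2 of 5 leukocyte markers and 0 of 5 endothelial markers. Levels of different genes come from different probes and are not ranked against each other. Fewer transcripts per cell and a different mix of cells cannot be told apart in such bulk RNA.

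The synthetase transcripts were lower in the exposed cells in most cases, and by little. Of the 33 members 27 were below the control, with a median difference of -0.09, and the whole set ran from -0.32 (FARS2) to 0.06 (PARS2). The share below the control was 81.8%, against 47.6% of all named genes and 59.8% of the genes above the median level, a group that held all 33 members. At 1.2-fold (0.26 on the log2 scale), 1 member was lower, FARS2, where 6.47% of all named genes and 7.53% of those above the median level were. No member was 1.2-fold higher, where 8.26% and 2.99% were. None reached 1.5-fold in either direction, as 0.700% of all named genes and 0.391% of those above the median level did. Gene differences on these arrays varied with level, so each member was also set against a running median over genes of like level. On that scale 26 of 33 members were below, against 49.9% of the genes above the median level, and the median was -0.06. After quantile normalization of both arrays the count was 24 of 33 and the median -0.04. On that scale 44.1% of all named genes and 46.4% of those above the median level were lower. The median difference of each compartment stayed negative under every scaling tried.

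**Figure D1:**
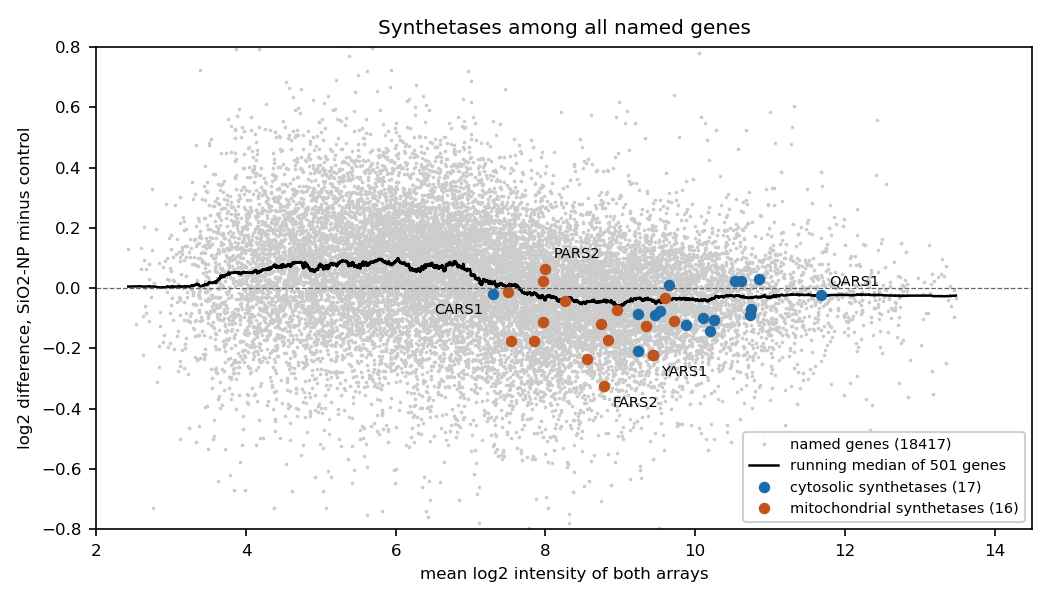
Log2 difference, SiO2-NP minus control (vertical axis), against the mean log2 intensity of both arrays (horizontal axis) for all 18417 named genes (grey), with the running median by level (black line), the 17 cytosolic synthetases (blue) and the 16 mitochondrial ones (orange); 35 genes beyond 0.8 in either direction lie outside the axis. The synthetases lie between -0.32 and 0.06, inside the cloud of other genes and mostly below the black line.

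In the cytosolic set 13 of 17 members were lower, with a median of -0.08 and a range from -0.22 to 0.03. The median was -0.05 against the running median by level, and -0.03 with 12 of 17 lower after quantile normalization. On the latter scale 46.4% of the genes above the median level were lower. The tyrosine enzyme YARS1, whose cleaved fragments also act as cytokines, had the largest difference. Its log2 intensity was 9.54 in the control and 9.32 after SiO2-NP, a difference of -0.22. LARS1, the leucine enzyme and a leucine sensor upstream of mTORC1, read 9.34 and 9.13, a difference of -0.21. These were the only cytosolic members whose difference was beyond -0.20, and 9.26% (YARS1) and 10.4% (LARS1) of all named genes lay lower still.

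A middle group of cytosolic enzymes differed by between -0.07 and -0.14. RARS1, which charges arginine tRNA, read 10.27 in the control and 10.13 after SiO2-NP, a difference of -0.14. EPRS1, also known for its part in silencing interferon-induced transcripts, read 9.94 and 9.82 (-0.12). The histidine enzyme HARS1, an autoantigen in myositis, read 10.31 and 10.20 (-0.11). Between 18.1% (RARS1) and 24.1% (HARS1) of all named genes lay lower than these, and 22.6% to 30.2% of genes above the median level. VARS1, the valine enzyme, read 10.15 and 10.05 (-0.10). Its 2 probes gave identical values on both arrays, so they are not taken as 2 separate measurements. The tryptophan enzyme WARS1, a gene induced by interferon gamma, read 9.50 and 9.41 (-0.09). The asparagine enzyme NARS1 read 10.78 and 10.69 (-0.09). The next 3 cytosolic members were slightly nearer to the control. The threonine enzyme TARS1 differed by -0.08 (9.28 and 9.20). MARS1, which charges both initiator and elongator methionine tRNA, differed by -0.08 (9.57 and 9.49). GARS1, the glycine enzyme of both compartments, differed by -0.07 (10.78 and 10.71).

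The remaining cytosolic enzymes differed by 0.03 or less in size. QARS1, the glutamine enzyme, read 11.69 in the control and 11.66 after SiO2-NP (-0.02). CARS1, the cysteine enzyme, read 7.30 and 7.29 (-0.02), close to the median gene level. The 4 cytosolic members above the control were SARS1, AARS1, KARS1 and IARS1. SARS1, which loads serine and also the tRNA of selenocysteine, read 9.65 and 9.66, a difference of 0.01 that became -0.0023 after centring the arrays on their medians. AARS1, the alanine enzyme, differed by 0.02 (10.60 and 10.62). KARS1, the lysine enzyme of both compartments, differed by 0.02 (10.52 and 10.54), and the isoleucine enzyme IARS1 by 0.03 (10.84 and 10.87). The sign of QARS1 turned to 0.03 after quantile normalization.

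**Figure D2:**
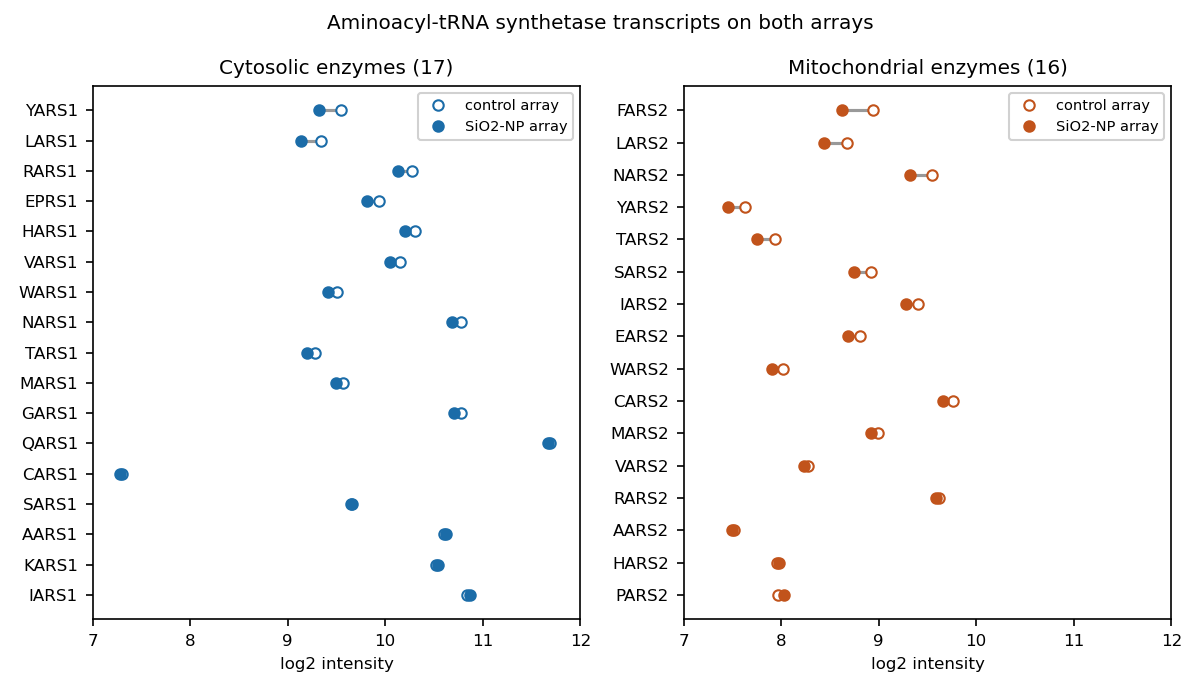
Log2 intensity (horizontal axis) of each of the 17 cytosolic (left) and 16 mitochondrial (right) synthetases in the control array (open circle) and the SiO2-NP array (filled circle), ordered by difference. The filled circle lies left of the open one in 27 of 33 genes, and the widest gap is FARS2, 8.94 against 8.62.

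In the mitochondrial set 14 of 16 members were lower, with a median of -0.12. It was -0.08 with 13 of 16 below against the running median by level, and -0.07 with 12 of 16 lower after quantile normalization. On the latter scale 46.4% of the genes above the median level were lower. FARS2, the phenylalanine enzyme of mitochondria, had the largest difference of any member, with 8.94 in the control array against 8.62 in the exposed one, a difference of -0.32 or 1.25-fold lower. Of all named genes 3.74% lay lower than FARS2, and 4.14% of those above the median level. LARS2, the leucine enzyme, read 8.68 and 8.44 (-0.23), and the asparagine enzyme NARS2 read 9.54 and 9.32 (-0.22). Variants of these genes cause mitochondrial disease, with hearing loss in the case of LARS2 and early epilepsy in that of FARS2. Without FARS2 the median of the set was -0.11.

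A trio of mitochondrial members followed at nearly the same size. YARS2, the tyrosine enzyme, had log2 intensities of 7.63 (control) and 7.45 (SiO2-NP), a difference of -0.18. The threonine enzyme TARS2 read 7.93 and 7.76 (-0.17), and the serine enzyme SARS2 read 8.92 and 8.75 (-0.17). Between 13.8% and 14.1% of all named genes were lower than these, and 17.0% to 17.4% of those above the median level. A further group lay near the median of the set. The isoleucine enzyme IARS2 differed by -0.13 (9.41 and 9.28). EARS2, which loads glutamate on both the glutamate and the glutamine tRNA of mitochondria, differed by -0.12 (8.81 and 8.69). The tryptophan enzyme WARS2 differed by -0.11 (8.02 and 7.91), and the cysteine enzyme CARS2 by -0.11 (9.77 and 9.66).

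The other mitochondrial members differed by less than 0.08 in size. MARS2, the methionine enzyme, read 8.99 and 8.92 (-0.07). VARS2, the valine enzyme, read 8.28 and 8.24 (-0.04), and its 2 probes differed by -0.04 and -0.05. RARS2, the arginine enzyme, whose variants cause a pontocerebellar hypoplasia, read 9.62 and 9.58 (-0.03). The signs of VARS2 and RARS2 turned after quantile normalization, to 0.01 and 0.02, so they have no settled direction even between these 2 arrays. AARS2, the alanine enzyme, read 7.512 and 7.498 (-0.01). The 2 members above the control were HARS2 (7.95 and 7.98, a difference of 0.02) and the proline enzyme PARS2 (7.97 and 8.03, a difference of 0.06).

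The mitochondrial median lay 0.03 below the cytosolic one on the log2 scale. The SD across genes was 0.10 in the mitochondrial set and 0.08 in the cytosolic set. That SD describes the spread between genes and is no measure of error for the gap. For 13 amino acids both an ARS1 and an ARS2 gene were measured. The mitochondrial enzyme had the lower difference in 8 of the 13, with a median gap of -0.03. The widest such gaps were for serine (-0.18, SARS2 minus SARS1), isoleucine (-0.16) and asparagine (-0.13). The gap ran the other way for histidine (0.13, HARS2 minus HARS1), arginine (0.11), valine (0.06), tyrosine (0.05) and methionine (0.0043). Both enzymes were below the control for 9 of the 13, the signs differed for 4 (alanine, histidine, isoleucine and serine), and for none were both above. EPRS1 has no symbol of that form but is the cytosolic enzyme for both glutamate and proline, and EARS2 lay 0.0045 above it and PARS2 0.19 above it. With these, the mitochondrial enzyme was lower for 8 of 15 amino acids and higher for 7, with a median gap of -0.02. Both were then below the control for 10, glutamate included, and the signs differed for 5, proline included. With 13 of 17 cytosolic and 14 of 16 mitochondrial members lower, many pairs would have both below however the enzymes were paired. No share for other pairings was computed, so these counts do not show that enzymes of the same amino acid go together. Of the 13 pairs, leucine and tyrosine had both enzymes beyond -0.15: LARS1 and LARS2 at -0.21 and -0.23, YARS1 and YARS2 at -0.22 and -0.18. The phenylalanine enzymes, whose cytosolic form is made of FARSA and FARSB, are outside these pairs, and there FARSB (-0.26) and FARS2 (-0.32) were both low while FARSA was at -0.01. With 1 array per group, whether the compartments differ was not tested.

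**Figure D3:**
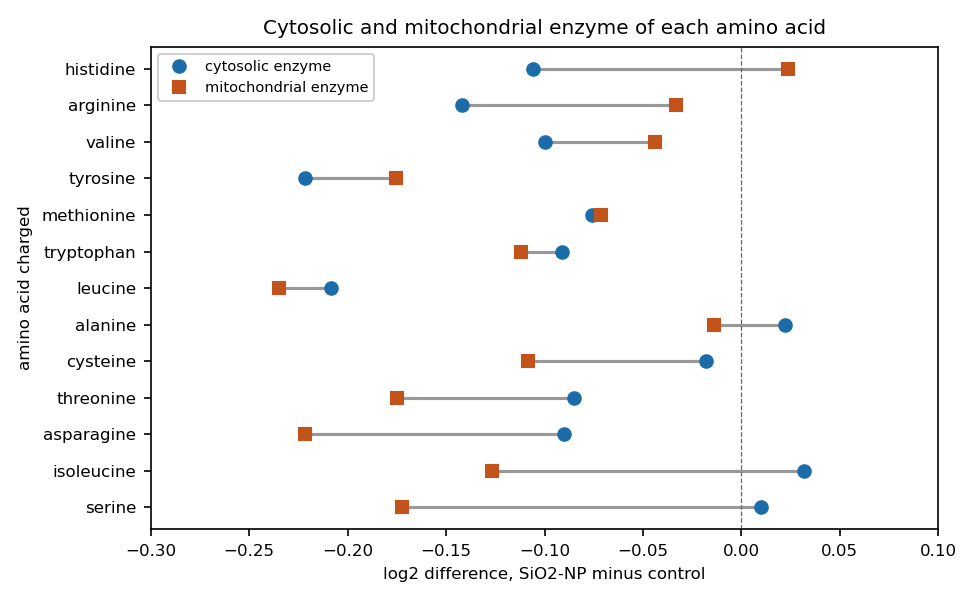
Log2 difference, SiO2-NP minus control (horizontal axis), of the cytosolic (blue circle) and mitochondrial (orange square) enzyme of each of the 13 amino acids with an ARS1 and an ARS2 gene (vertical axis), ordered by the gap between them. The orange square lies left of the blue circle for 8 amino acids, most widely for serine (-0.17 against 0.01), and right of it for 5, most widely for histidine (0.02 against -0.11).

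By catalytic class, 17 of 18 class I members were lower (median -0.10), the exception being IARS1, and 9 of 14 class II members were (median -0.08). Of all named genes 47.6% were lower, and of those above the median level 59.8%. The class I members QARS1, RARS2 and VARS2 turned sign after quantile normalization, while no class II member did. SARS1, of class II, turned sign (to -0.0023) after centring the arrays on their medians. Whether the classes differ was not tested. All 9 mitochondrial class I members were lower (CARS2, EARS2, IARS2, LARS2, MARS2, RARS2, VARS2, WARS2 and YARS2), from -0.03 to -0.23, of which RARS2 and VARS2 turned sign after quantile normalization. The class II members spread more widely: FARS2, NARS2, SARS2 and TARS2 lay at -0.17 or below, while AARS1, HARS2, KARS1, PARS2 and SARS1 were above the control. Of the enzymes of the multi-synthetase complex, a cytosolic assembly of several synthetases and scaffold proteins, 5 of the 7 measured were lower, with a median of -0.08. The 10 cytosolic members outside the complex had a median of -0.09 and 8 lower. AIMP1, a scaffold of the complex, read 8.83 in the control and 8.61 after SiO2-NP (-0.23). Its partners AIMP2 and EEF1E1 were not analysed here.

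The symbol rule leaves out 3 further synthetase genes. FARSB, the beta subunit of the cytosolic phenylalanine enzyme, read 11.14 in the control and 10.88 after SiO2-NP, a difference of -0.26. FARSA, its alpha subunit, read 10.36 and 10.35 (-0.01), so the subunits of that enzyme had unlike differences on these arrays. TARS3, a threonine enzyme like TARS1, read 7.65 and 7.40 (-0.25). It shares sequence with TARS1, and how far the probes separate them was not tested.

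Other genes of mitochondrial tRNA charging and translation were lower too. GATB, GATC and QRSL1, the subunits of the amidotransferase that turns the glutamate loaded by EARS2 on glutamine tRNA into glutamine, differed by -0.20, -0.06 and -0.09. MTFMT, which formylates the initiator methionine tRNA loaded by MARS2, differed by -0.09. All 4 were lower, and so were 8 of 8 measured mitochondrial translation factors, with a median of -0.17. Their largest differences were in the initiation factor MTIF3 (7.73 and 7.25, a difference of -0.48), the elongation factor GFM1 (-0.37) and the initiation factor MTIF2 (-0.25), while TUFM, which carries charged tRNA to the mitochondrial ribosome, differed by -0.16. Of the genes for tRNA end processing and export 9 of 9 measured were lower, with a median of -0.08, led by TRMT10C, a subunit of mitochondrial RNase P (-0.25), TRNT1, which adds the CCA end that synthetases load (-0.23), and ELAC1 (-0.20). Among genes that check charged tRNA or make selenocysteine, 3 of 5 measured were lower, with a median of -0.07; PSTK (-0.18), DTD2 (-0.14) and SEPSECS (-0.07) had the largest differences, and SARS1 counts here too. The cytosolic elongation factors had 1 of 5 lower and a median of 0.01, with EEF1B2 at 0.20, EEF1A1 at -0.04 and EEF2 at 0.02. These counts stand beside the 47.6% of all named genes and the 59.8% of those above the median level that were lower. ELAC1 and PSTK lie under that level. No list was set apart from these shares by a test.

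**Figure D4:**
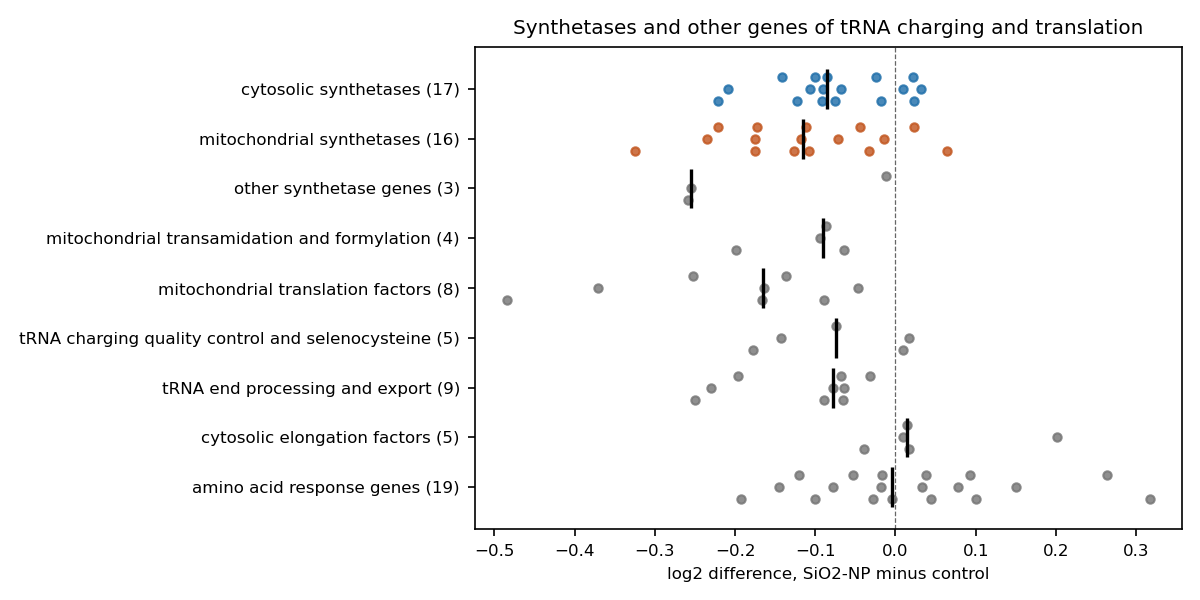
Log2 difference, SiO2-NP minus control (horizontal axis), of each gene (dot) in the 2 synthetase sets and 7 related lists (vertical axis, genes measured in brackets), with each median as a black line; vertical scatter within a row has no meaning. Medians run from -0.25 in the 3 other synthetase genes to 0.01 in the cytosolic elongation factors.

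The 13 cytosolic synthetases commonly listed as ATF4 targets had 10 members below the control and a median of -0.08, and the 4 other cytosolic members had 3 below and a median of -0.07. Genes of the wider amino acid response were split on the deposited scale, with 10 of 19 lower and a median of -0.00. Of all named genes 47.6% were lower, and of those above the median level 59.8%. Against the running median by level, 7 of these 19 were below, with a median of 0.02. On that scale 10 of the 13 listed synthetases were below (median -0.05), as were 49.9% of the genes above the median level. Whether the lists differ was not tested. ATF4 itself differed by 0.03 (10.21 in the control, 10.25 after SiO2-NP), and ASNS, the asparagine synthetase that this response is known to induce, by -0.05. The largest differences were those of ATF3 (0.32, from a level under the median gene level), TRIB3 (0.26) and PHGDH (-0.19), an enzyme of serine synthesis. XPOT, the exporter of tRNA from the nucleus, differed by -0.08. Of the listed synthetases AARS1, IARS1 and SARS1 were above the control, by 0.03 or less, against 0.26 in TRIB3.

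Promoter windows of GRCh38.p14 from RefSeq, 250 bases before to 50 after each annotated start, were found for 28 of 33 members, 14 in each compartment. AARS2, LARS1, VARS1, VARS2 and YARS1 had no entry. The windows were searched on both strands for TGATGNAA, the core of the element bound by ATF4 with C/EBP factors. A match lay in 7 of 14 cytosolic members (AARS1, CARS1, GARS1, IARS1, MARS1, NARS1 and TARS1) and in 1 of 14 mitochondrial members (YARS2). A match was held by 3.62% of all promoter windows, and by 3.59% of the measured genes in at least 1 window. The 4 matches nearest to an annotated start are shown with 11 bases on each side, 5′ to 3′ on the strand of the gene, the match in capitals. They lie at chr11:3057407-3057436 (CARS1, minus strand), chr5:33440956-33440985 (TARS1, plus strand), chr12:57488053-57488082 (MARS1, plus strand) and chr9:92293692-92293721 (IARS1, minus strand).
CARS1: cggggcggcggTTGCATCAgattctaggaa
TARS1: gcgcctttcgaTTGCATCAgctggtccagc
MARS1: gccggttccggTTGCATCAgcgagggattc
IARS1: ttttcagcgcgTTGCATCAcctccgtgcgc
All 4 hold the same 8 letters, which read as the motif on the opposite strand. Counted from 0 at the first transcribed base, the matches begin at -2 in CARS1, 2 in TARS1, -4 in MARS1 and -13 in IARS1.

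The 7 cytosolic members with a match had a median difference of -0.07, from -0.09 (NARS1) to 0.03 (IARS1), and the 7 without one had -0.09, from -0.14 (RARS1) to 0.02 (KARS1), with 5 members of each group below the control. LARS1, VARS1 and YARS1 (-0.21, -0.10 and -0.22) had no window and are in neither group. Among the cytosolic members with a window, those with and without these letters overlapped in their differences. CCGGAAG, the core bound by ETS family factors, lay in 9 of 14 cytosolic and 7 of 14 mitochondrial members, where 10.3% of all windows and 16.8% of measured genes held it. CACGTG, the E-box bound by MYC and USF factors and its own reverse complement, lay in 1 cytosolic member (IARS1) and 3 mitochondrial ones (CARS2, EARS2 and MARS2), against 7.26% of windows and 10.9% of measured genes. GCGCATGC, a core bound by NRF1, lay in MARS2 and YARS2 only among the members with a window, against 3.05% of windows and 4.87% of measured genes, and the 2 matches in MARS2 overlap each other. No match of one motif was counted for another, and a match is a run of letters, not a shown binding site.

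Of the 28 members with a window, 9 (32.1%) shared part of it with a gene that starts on the opposite strand, against 21.6% of measured genes. HARS1 and HARS2 are each other's neighbour and both count among the 9. Whether these shares differ was not tested. HARS1 and HARS2 start head to head, both hold CCGGAAG in the shared stretch, and differed by -0.11 and 0.02. FARS2 starts beside LYRM4, a gene of iron-sulfur cluster assembly, which read 8.56 in the control and 8.60 after SiO2-NP (0.04, against -0.32 in FARS2). SARS2 starts beside MRPS12, a protein of the mitochondrial ribosome, and these were both lower, at -0.17 and -0.20. RARS2 (-0.03) starts beside ORC3, a subunit of the origin recognition complex (-0.22), and EARS2 (-0.12) beside UBFD1 (-0.07). KARS1 (0.02) shares its window with TERF2IP, a telomere protein (-0.08), and WARS1 (-0.09) with WDR25 (0.01). The neighbour of TARS1, the divergent transcript TARS1-DT, was not analysed here. With HARS1 and HARS2 counted as 1 pair, 7 such pairs had both genes measured, and the signs were alike in 3 (EARS2, RARS2 and SARS2) and opposite in 4 on the deposited scale. That split moved with the scaling. It was 4 and 3 after centring on the medians, where WARS1 and WDR25 became alike, 3 (EARS2, SARS2 and WARS1) and 4 against the running median, and 2 (EARS2 and SARS2) and 5 after quantile normalization. The share of like signs over all head-to-head pairs on the arrays was not computed. These counts therefore have no background beside them, and nothing about shared promoters is drawn from them.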

How the data were processed

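The authors deposited a log2 intensity for every probe (transcript cluster) of each array; the log2 scale was read from the values. Per the submitters' processing notes RMA and MAS5 were used, and which of them gave these values, with which settings, is not given in the sources used here. A step such as RMA equalises the arrays' distributions, which would hide a shift shared by most genes. Of 33297 probes, 19460 had exactly 1 gene symbol in the platform annotation, and these were averaged per gene. All 33 member symbols matched the RefSeq gene table of GRCh38.p14; 31 members had 1 probe and 2 had 2.

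Differences, medians and counts were computed beside the same over all named genes. In the main results a level filter (the median gene mean) was used only for the background, and among the alternatives also for the members. No p-value was possible, since each group is 1 array, and precision is limited by the number of arrays. Every member was named, with up to 3 genes of each related list by size of difference while TUFM, ATF4, ASNS, XPOT, GATC and the head-to-head neighbours were added after their values were seen; at most 4 promoter stretches were printed. Members, lists and thresholds were chosen with earlier results of these data known. Alternatives were other scalings, level filters, probe rules, the mean, a 1.5-fold threshold and sets without GARS1 and KARS1. The running median was checked on a simulated trend with level, and the quantile normalization on the real arrays. Folds planted in shuffled differences were recovered by construction. Member counts, pairs and promoter steps were not checked in this way. The software was Python 3.11.15 with pandas 2.3.3, NumPy 2.4.6 and, for plots, matplotlib 3.10.9.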

Additional observations from a re-analysis of the deposited data

How the results depend on the processing

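The medians of both compartments, of all members and the gap between compartments kept their sign under the 10 other settings, as far as they applied to each, and 1 more chosen after seeing the data (without FARS2). Several of these settings could show little. Both probe rules and the median level filter left these values unchanged, as 31 members had 1 probe and all 33 passed the filter. Centring the arrays on their medians cannot move the gap. The cytosolic median ran from -0.10 (arrays centred on their medians) to -0.03 (quantile normalization), the mitochondrial one from -0.13 to -0.07 (the same settings), and the gap, cytosolic minus mitochondrial, from 0.03 to 0.04. With only genes at or above the 75th percentile of levels, 7 mitochondrial members were measured above the filter and all 7 were lower, in place of 14 of 16, since the filter leaves fewer genes. The share of all genes above that filter that were lower was not computed, so this count has no background beside it. Of the genes above the median level 59.8% were lower. At 1.5-fold the count of lower members was 0 in place of 1. Of the 33 members 29 kept their sign under 5 alternatives for single genes. QARS1, RARS2, SARS1 and VARS2 did not, and the largest move of a member was 0.06. The probe rules among these 5 moved no member by more than 0.00845, so the sign changes came from the rescalings. No paired analysis was possible because there is a single array on each side, which also means that leaving out a replicate could not be tried. Background and detection values of the arrays were not used here, so how far each member stood above background is unknown.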
